A study of Bos taurus with 3 samples.

Results

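The insulin-like growth factor genes described here were those of 6 binding proteins (*IGFBP2*, *IGFBP3*, *IGFBP4*, *IGFBP5*, *IGFBP6* and *IGFBP7*) and 2 receptors (*IGF1R* and *IGF2R*). They were taken by name from the 19533 genes named in the count matrix of single cells of the cow rumen, and all 8 were present and passed the filter on low counts. The cells came from the rumen of 3 adult, lactating Holstein dairy cows, with 1 library for each cow, no treatment and no second group. After dissociation, cells were captured in droplets, and each captured transcript was counted once by its unique molecular identifier (UMI). The study had looked for doublets and had taken out cells that were not epithelial, which left 20728 cells, 3369 of cow 1, 7401 of cow 2 and 9958 of cow 3. Because no deposited cell names were at hand, the cells were split by the UMIs of 4 genes and are called by those genes, with no cell type name.

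Insulin-like growth factors are secreted proteins that drive growth and survival through *IGF1R*, a receptor tyrosine kinase. The binding proteins hold these factors outside the cell, where they carry them, store them or keep them from the receptor. *IGF2R* binds *IGF2* without growth signalling and clears it, and it also sorts lysosomal enzymes that carry mannose 6-phosphate. In the rumen, the layered epithelium that absorbs volatile fatty acids is renewed from its base, and insulin-like growth factors have been studied there as signals for the growth of the papillae.

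Cells with at least 2 UMIs of *TOP2A*, the DNA topoisomerase of dividing cells, were called *TOP2A*+ (1665 cells). Among the rest, cells with at least 2 UMIs of *GJA1*, a gap junction connexin, were called *GJA1*+ (1182 cells), then cells with at least 2 UMIs of *DLK2*, a membrane protein with EGF-like repeats, *DLK2*+ (3401 cells), and then cells with at least 2 UMIs of *KRT15*, a basal keratin, *KRT15*+ (14435 cells). The last 45 cells fell in no class. *KRT15* had at least 2 UMIs in 20635 of the 20728 cells, so *KRT15*+ cells are in effect those left after the first 3 genes, and low *KRT15* defined almost no cell. Every class held cells of every cow, with 192 to 1244 *TOP2A*+, 363 to 420 *GJA1*+, 630 to 2010 *DLK2*+ and 2076 to 7565 *KRT15*+ cells per cow.

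The 3 libraries held 38912809 to 104189434 UMIs, and the median depth was 10514 UMIs per cell. *TOP2A*+ and *GJA1*+ cells were the deepest. Their medians over the pooled cells were 15347 and 16859.5 UMIs against 9893 in *DLK2*+ and 9935 in *KRT15*+ cells. Between these 2 classes, *GJA1*+ cells were the deeper in cow 1 (17402 against 15744) and *TOP2A*+ cells in cow 2 (18962 against 18646) and cow 3 (14799 against 13845). The class rule used UMIs that were not scaled by depth. The median share of mitochondrial UMIs was 17.1% in *GJA1*+ cells, 13.1% in *TOP2A*+, 10.1% in *DLK2*+ and 12.1% in *KRT15*+ cells. All 7 epithelial markers were found in every class, at a summed level of 103 to 186 UMIs per 10000. The 7 fibroblast markers, of which *LUM* was not named in the matrix, summed to at most 0.00417 per 10000 UMIs, with 29 UMIs of *PDGFRA*, 5 of *COL1A1*, 1 of *DCN* and none of *PDGFRB* over all cells. The summed levels of the 6 endothelial, 6 smooth muscle and 6 immune markers stayed within 0.0136 to 0.0473, 0 to 0.0221 and 0.0468 to 0.134 per 10000 UMIs. Most endothelial UMIs were those of *VWF* (563). The 4 markers of cycling summed to 7.50 to 13.7 per 10000 UMIs in *TOP2A*+ cells and to at most 0.267 elsewhere, a contrast that is fixed in part by the class rule, because *TOP2A* is 1 of the 4. Libraries shared 5 to 20 cell barcodes.

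*IGFBP5* and *IGFBP6* supplied most UMIs of the 8 genes, with 37743 and 25308. *IGF2R* followed with 8225, and the others gave 803 (*IGF1R*) to 1848 (*IGFBP3*). Because reads start at the 3' end and capture differs between transcripts, these totals give the counting support of each gene, and they are no comparison of mRNA amounts. *IGFBP5* was found in 57.3%, 59.2% and 62.8% of the cells of cows 1, 2 and 3, and *IGFBP6* in 17.5%, 27.8% and 57.8%. With every cell thinned to 5000 UMIs, which left out 1518 shallower cells, the shares were 45.7%, 38.5% and 45.6% for *IGFBP5* and 10.8%, 15.2% and 44.0% for *IGFBP6*. No cell type that should lack these genes was in the data, so the share of cells that free RNA gives could not be set. The shares of cells given below, of 1 gene or of both, have no background share beside them, and the tests between classes use counts.

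**Figure D1:**
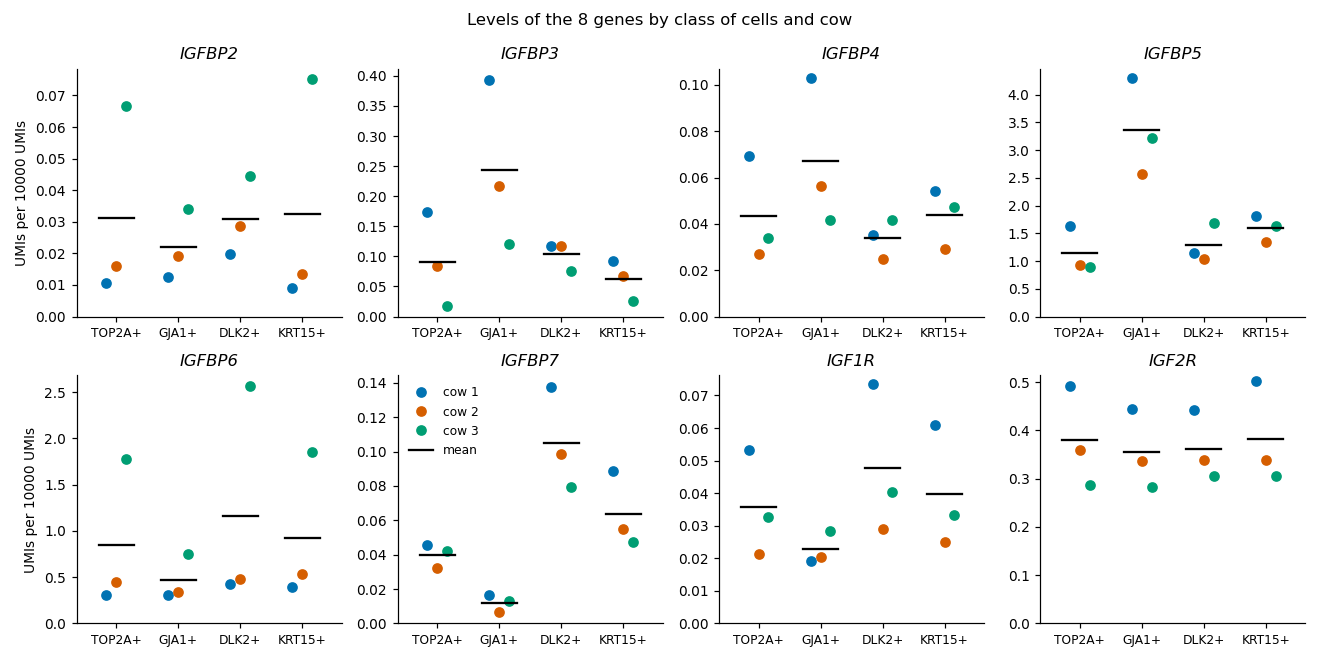
Level of each gene (y axis, UMIs per 10000 UMIs of the summed class; each panel has its own scale from 0) in the 4 classes of cells (x axis), with 1 point per cow and a bar at the mean of 3 cows. *IGFBP5* in *GJA1*+ cells lay at 2.57 to 4.30 and above every other class in every cow, while *IGFBP7* was lowest there at 0.00642 to 0.0165.

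*IGFBP5* encodes a binding protein that is held in the extracellular matrix. It was highest in *GJA1*+ cells, at 4.30, 2.57 and 3.22 UMIs per 10000 in cows 1, 2 and 3. *KRT15*+ cells had 1.81, 1.35 and 1.63, *DLK2*+ cells 1.14, 1.05 and 1.69, and *TOP2A*+ cells 1.62, 0.923 and 0.888. The 3 values of *GJA1*+ cells overlapped with none of the others, whereas the ranges of the other 3 classes overlapped with each other. Within a cow, the level in *GJA1*+ cells was 1.90 to 2.37 times that in *KRT15*+ cells, 1.91 to 3.76 times that in *DLK2*+ cells, and the level in *TOP2A*+ cells was 0.276 to 0.378 of that in *GJA1*+ cells. After thinning, 63.6% ± 6.63 (SD, n = 3 cows) of *GJA1*+ cells had an *IGFBP5* UMI, against 44.4% ± 4.06 of *KRT15*+, 36.7% ± 9.37 of *DLK2*+ and 33.0% ± 6.01 of *TOP2A*+ cells, and the values without thinning were 83.4%, 60.1%, 51.8% and 59.0%.

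*IGFBP6* encodes a binding protein with a preference for *IGF2*, and its levels differed more between cows than between classes. *KRT15*+ cells had 0.393, 0.537 and 1.85 UMIs per 10000 in cows 1, 2 and 3, *DLK2*+ cells 0.431, 0.481 and 2.57, *TOP2A*+ cells 0.304, 0.451 and 1.78, and *GJA1*+ cells 0.308, 0.344 and 0.753. Cow 3 was the highest in every class, so that the classes overlapped over cows, and the order of classes shows only within a cow. In *KRT15*+ cells, cow 3 was at 3.98 times the mean of cows 1 and 2, which was higher than the same ratio of 99.8% of the 7318 genes with enough UMIs, while 2.09% of those genes were more than 2-fold higher. With 1 library for each cow, animal and library cannot be told apart and the difference has no test. The same ratio was 1.03 for *IGFBP5*, 0.728 for *IGF2R*, 0.661 for *IGFBP7* and 0.326 for *IGFBP3*.

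*IGFBP3* encodes the main carrier of these factors in blood. *GJA1*+ cells had 0.393, 0.217 and 0.121 UMIs per 10000 in cows 1, 2 and 3, against 0.0929, 0.0678 and 0.0262 in *KRT15*+ cells, which did not overlap. *DLK2*+ cells had 0.118, 0.117 and 0.0751 and *TOP2A*+ cells 0.173, 0.0832 and 0.0169. Its UMIs were held by few cells. In all, 66.8% of the *IGFBP3* UMIs were in the 208 cells (1%) with the most, 1 cell held 54, and 82 cells held at least 5. The corresponding share was 46.9% for *IGFBP2*, 29.1% for *IGF1R*, 27.6% for *IGFBP4* and 22.3% for *IGFBP7*, which were about as sparse, and 8.43% to 14.1% for *IGF2R*, *IGFBP5* and *IGFBP6*.

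*IGFBP7* encodes a related protein with low affinity for the factors. It was lowest in the class where *IGFBP5* was highest, with 0.138, 0.0988 and 0.0792 UMIs per 10000 in *DLK2*+ cells of cows 1, 2 and 3, 0.0886, 0.0550 and 0.0475 in *KRT15*+ cells, 0.0454, 0.0322 and 0.0420 in *TOP2A*+ cells, and 0.0165, 0.00642 and 0.0132 in *GJA1*+ cells. *TOP2A*+ and *GJA1*+ cells lay below *KRT15*+ cells without overlap, and *DLK2*+ and *KRT15*+ cells overlapped over cows, although *DLK2*+ cells were higher in each of the 3 cows. In *GJA1*+ cells only 24 UMIs of *IGFBP7* were counted in all.

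*IGFBP4* and *IGFBP2* were sparse, with 990 and 937 UMIs. *IGFBP4*, whose product is cut by the protease *PAPPA*, had 0.103, 0.0565 and 0.0416 UMIs per 10000 in *GJA1*+ cells and 0.0544, 0.0294 and 0.0475 in *KRT15*+ cells, so that cows 1 and 2 were higher in *GJA1*+ cells and cow 3 was not. *IGFBP2*, a carrier abundant in fetal tissue, was found mainly in cow 3, with 0.00891, 0.0134 and 0.0752 UMIs per 10000 in *KRT15*+ cells and 0.0124, 0.0193 and 0.0340 in *GJA1*+ cells. In the RefSeq annotation of assembly ARS-UCD2.0, *IGFBP2* neighbours *IGFBP5*, *IGFBP3* neighbours *IGFBP1* and *IGFBP4* neighbours *TOP2A*. Over all cells, *IGFBP1* had 11 UMIs.

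Of the receptors, *IGF2R* varied least over the classes. It had 0.503, 0.338 and 0.306 UMIs per 10000 in *KRT15*+ cells of cows 1, 2 and 3 and 0.444, 0.336 and 0.284 in *GJA1*+ cells. Cow 1 was highest and cow 3 lowest in each class, and the means of the 4 classes lay between 0.355 and 0.382. *IGF1R*, with 803 UMIs, had 0.0734, 0.0291 and 0.0403 in *DLK2*+ cells, 0.0610, 0.0252 and 0.0333 in *KRT15*+ cells, 0.0534, 0.0215 and 0.0327 in *TOP2A*+ cells and 0.0193, 0.0205 and 0.0284 in *GJA1*+ cells. The *GJA1*+ cells were below the *KRT15*+ cells in every cow, yet the ranges overlapped.

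The difference between classes was tested with the quasi-likelihood test of edgeR on UMIs summed by cow and class, with the cow as a block and Benjamini-Hochberg adjustment over the 10342 genes tested. A gene was called at an adjusted p under 0.05 and an absolute log2 fold change over 0.25. All classes come from the same 3 cows. The fit estimates the spread from all 15 sums and partly shares it over genes, so a small p-value does not require that the 3 cows agree. For *GJA1*+ against *KRT15*+ cells, *IGFBP4* was called although its ratio was 1.90, 1.92 and 0.876 in cows 1, 2 and 3.

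Between *GJA1*+ and *KRT15*+ cells, 3 of the 8 genes were higher in *GJA1*+ cells and 3 were lower, where 17.1% of all genes were called higher, 24.4% lower and 41.6% in either direction. *IGFBP5* was higher by a log2 fold change of 1.10 ± 0.16 (standard error, adjusted p = 6.0e-06), *IGFBP3* by 2.00 ± 0.21 (adjusted p = 4.9e-08) and *IGFBP4* by 0.68 ± 0.21 (adjusted p = 0.0119). *IGFBP7* was lower at -2.37 ± 0.26 (adjusted p = 1.9e-07), *IGFBP6* at -0.73 ± 0.17 (adjusted p = 0.00105) and *IGF1R* at -0.73 ± 0.25 (adjusted p = 0.0232). *IGFBP2* and *IGF2R* had log2 fold changes of -0.31 ± 0.35 and -0.05 ± 0.09 and were not called. The median absolute log2 fold change was 0.73 over the 8 genes and 0.32 over all genes, and in the other 5 comparisons it was 0.28 to 1.01 over the 8 genes and 0.13 to 0.40 over all genes. Without the cow as a block, *IGFBP5* (adjusted p = 0.0208) and *IGFBP7* (adjusted p = 0.00289) were still called, while *IGFBP3* (0.0802), *IGFBP4* (0.367), *IGFBP6* (0.554) and *IGF1R* (0.392) were not. The call of *IGFBP4* was lost without cow 1 and without cow 2 (log2 fold changes of 0.55 and 0.55), and that of *IGF1R* without cow 1, whose removal moved the log2 fold change to -0.15. Both calls were also lost with DESeq2 (adjusted p = 0.0952 for *IGFBP4* and 0.0600 for *IGF1R*) and with the classes set at 1 UMI (0.48 and -0.36), and that of *IGF1R* without cells that held 2 of *TOP2A*, *GJA1* and *DLK2* (-0.61). Classes at 1 UMI also moved *IGFBP7* to -1.30 and *IGFBP6* to -0.41, with their calls kept. Without cow 3, *IGFBP6* moved to -0.40 and kept its call, and *IGFBP4* moved to 1.05. With every cell thinned to 5000 UMIs before the classes were set, *IGFBP5* was at 1.30, *IGFBP3* at 1.90, *IGFBP6* at -1.25 and *IGFBP7* at -2.52, all called. The mitochondrial share, which was higher in *GJA1*+ cells, was not tested for its part in these differences. From these same cells, the study had already named a *GJA1*-expressing group after *IGFBP5*. The difference of *IGFBP5* was thus known before this test and is no independent finding.

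Against *DLK2*+ cells, *GJA1*+ cells had the same 3 genes higher and the same 3 lower, where 19.5% of all genes were called higher, 29.2% lower and 48.7% in either direction. This comparison and the preceding one share the *GJA1*+ cells. The log2 fold changes were 1.42 ± 0.16 for *IGFBP5* (adjusted p = 1.5e-07), 1.22 ± 0.23 for *IGFBP3* (adjusted p = 8.8e-05), 1.06 ± 0.25 for *IGFBP4* (adjusted p = 0.00128), -3.12 ± 0.26 for *IGFBP7* (adjusted p = 1.7e-09), -0.89 ± 0.17 for *IGFBP6* (adjusted p = 0.000145) and -0.96 ± 0.27 for *IGF1R* (adjusted p = 0.00585). *IGFBP7* thus spanned the widest range of the 8 genes over the classes. Its level in *GJA1*+ cells was 0.0650 to 0.167 of that in *DLK2*+ cells within a cow. For *IGFBP4* the same ratio was 2.93, 2.27 and 0.997 in cows 1, 2 and 3, so that cow 3 had almost no difference. Without the block, *IGFBP5* and *IGFBP7* kept their calls (adjusted p = 0.0023 and 0.000259), and the adjusted p of the others was 0.0968 to 0.310. *IGFBP6* lost its call without cow 3, at -0.30, and *IGF1R* without cow 1, at -0.35. With the classes set at 1 UMI, *IGFBP7* was at -1.94, *IGFBP6* at -0.48 and *IGF1R* at -0.51, all still called, and in thinned cells *IGFBP3* was at 1.88.

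*DLK2*+ and *KRT15*+ cells were closest to each other by calls, with 1.74% of all genes called higher in *DLK2*+ cells, 2.11% lower and 3.85% in either direction. The class rule left 3936 of the 14407 *DLK2* UMIs in *KRT15*+ cells, and the part of this in the low share of calls was not tested. *IGFBP7* was higher in *DLK2*+ cells by a log2 fold change of 0.74 ± 0.14 (adjusted p = 0.00317) and *IGFBP3* by 0.78 ± 0.22 (adjusted p = 0.0434). Both were higher in 3 of 3 cows. *IGFBP5* and *IGFBP6* were at -0.32 ± 0.16 and 0.16 ± 0.15 and were not called. Neither of the 2 calls held without the block (adjusted p = 1.00 for both), and both were lost without cow 2, where the log2 fold changes were 0.69 for *IGFBP7* and 0.79 for *IGFBP3*. The call of *IGFBP3* was also lost with DESeq2, which gave *IGFBP7* no adjusted p, without cells under 3000 UMIs, without the cells of no class, and in thinned cells, at 0.014. In thinned cells, *IGFBP5* was at -0.66 and was called (adjusted p = 0.0106), and without cow 3 it was called at -0.56. *IGFBP2*, at 0.26 ± 0.27, was called without cow 3 as well (1.04, adjusted p = 0.0101).

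*TOP2A*+ cells had 2 genes lower than in *KRT15*+ cells, *IGFBP5* at -0.66 ± 0.16 (adjusted p = 0.00294) and *IGFBP7* at -0.62 ± 0.18 (adjusted p = 0.0108), where 19.1% of all genes were called lower, 16.1% higher and 35.2% in either direction. Both were lower in 3 of 3 cows. Neither call held without the block (adjusted p = 0.284 and 0.257) or with the classes set at 1 UMI (-0.34 and -0.27), and that of *IGFBP7* was lost without cow 1 (-0.45), without cow 2 (-0.56) and in thinned cells (-0.24), and moved to -0.97 without cow 3. The log2 fold change of *IGFBP5* was -0.43 without cow 3 and -0.97 without cells that held 2 of *TOP2A*, *GJA1* and *DLK2*, with its call kept in both.

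Against *GJA1*+ cells, with 21.0% of all genes called higher, 17.3% lower and 38.2% in either direction, *TOP2A*+ cells were lower in *IGFBP5* (-1.76 ± 0.17, adjusted p = 9.8e-09), *IGFBP3* (-1.90 ± 0.27, adjusted p = 3.5e-06) and *IGFBP4* (-0.99 ± 0.27, adjusted p = 0.00503), and higher in *IGFBP7* (1.75 ± 0.32, adjusted p = 0.000132). Without the block, *IGFBP3* and *IGFBP4* lost their calls (adjusted p = 0.146 and 0.254), and with the classes set at 1 UMI, *IGFBP7* was at 1.03, with its call kept. *IGFBP6* was at 0.40 ± 0.18 (adjusted p = 0.0853) and was not called. It passed under 5 alternatives, among them thinned cells (0.77), and was at 0.00041 without cow 3. Against *DLK2*+ cells, with 19.3% called higher, 23.8% lower and 43.2% in either direction, *IGFBP7* was lower at -1.36 ± 0.19 (adjusted p = 6.1e-06; -0.91 with the classes set at 1 UMI) and *IGFBP6* at -0.49 ± 0.17 (adjusted p = 0.0218), a call that only 5 of 13 alternatives kept and that was lost without cow 1 (-0.41) and without cow 3 (-0.30). *IGFBP5* was at -0.35 ± 0.17 against *DLK2*+ cells and was not called, but was called without cells that held 2 of the 3 genes (-0.64, adjusted p = 0.00116) and without cow 1 (-0.66), and was at 0.12 without cow 3. Other calls were gained for *IGFBP3* in this comparison (-0.68 ± 0.28), without cow 1 (-1.35) and without those cells (-1.14), and for *IGF1R* (-0.48 ± 0.25) with the classes set at 1 UMI (-0.46). *IGFBP6* in *TOP2A*+ against *KRT15*+ cells (-0.33 ± 0.16) gained a call without cow 3 (-0.40) and in thinned cells (-0.48). With no filter on low counts, calls were gained for *IGFBP3* and *IGFBP5* in *TOP2A*+ against *DLK2*+ cells. They were also gained for *IGFBP6* in *TOP2A*+ against *KRT15*+ and *IGFBP5* in *DLK2*+ against *KRT15*+ cells. Scaling by library size in place of the trimmed mean of M values (TMM) moved the median log2 fold change of all genes by 0.14, 0.19 and 0.12 in the comparisons of *TOP2A*+ with *KRT15*+, *GJA1*+ and *DLK2*+ cells, and the share of calls that were higher from 45.8% to 68.9%, from 54.9% to 76.0% and from 44.8% to 58.5%. Without the 45 cells of no class, the share of calls that were higher moved from 41.2% to 51.1% for *GJA1*+ against *KRT15*+ cells and from 54.9% to 48.1% for *TOP2A*+ against *GJA1*+ cells, so that the balance of all genes turned in both. Such turns were common. Over 14 alternatives the share ran from 32.4% to 54.3% and from 46.5% to 76.0% in these comparisons, and from 45.5% to 77.1% for *TOP2A*+ against *KRT15*+ cells, where 77.1% was without the block. No called value of the 8 genes changed direction under any alternative that could be fitted.

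**Figure D2:**
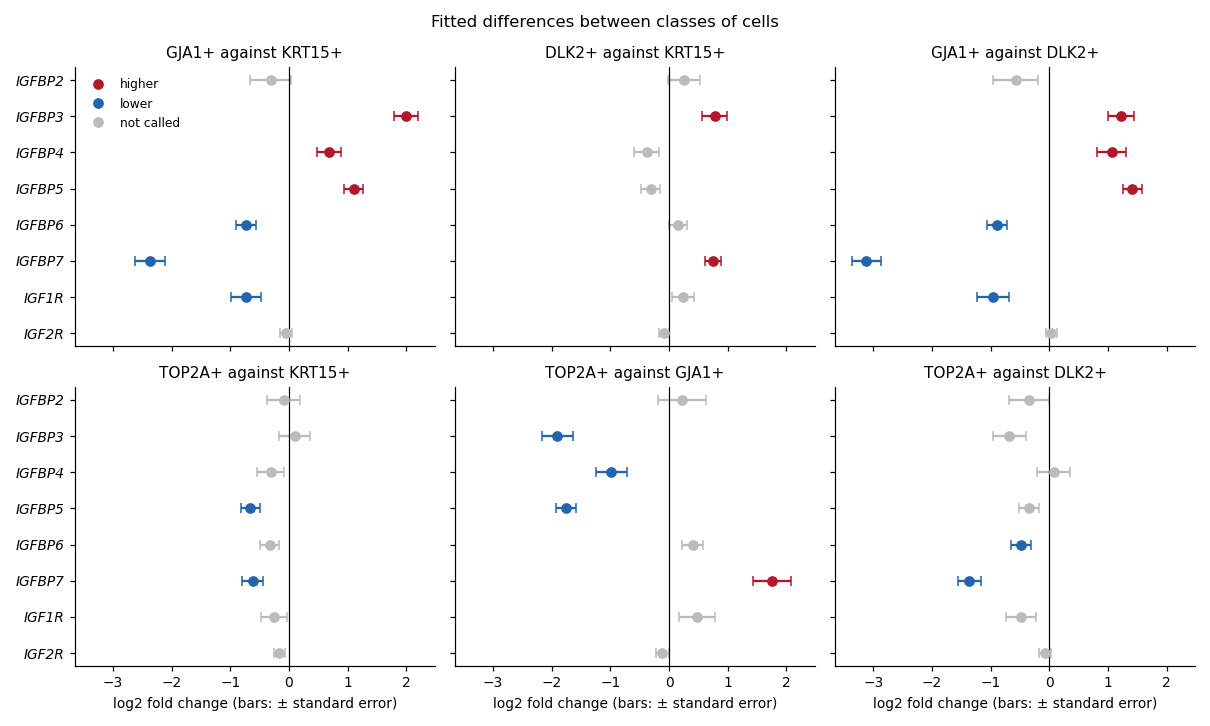
Log2 fold change of each gene (x axis, points with standard error bars) in the 6 comparisons of classes, from the edgeR fit over 3 cows. Red and blue points were called higher and lower, grey ones were not. *IGFBP7* ran from -3.12 to 1.75 over the comparisons, whereas *IGF2R* stayed between -0.17 and 0.04.

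Whether *IGFBP5* and *IGFBP6* exclude each other was examined in single cells at an equal depth of 5000 UMIs, averaged over all ways to thin a cell. A UMI of free RNA counts here as detection, and its part was not tested. In cow 1, 5.14% of cells had a UMI of both genes, 40.5% of *IGFBP5* alone, 5.63% of *IGFBP6* alone and 48.7% of neither. In cow 2 these shares were 6.34%, 32.2%, 8.89% and 52.6%, and in cow 3 they were 19.8%, 25.8%, 24.2% and 30.1%. Cow 3 thus had the most cells with both genes, as it had the most with *IGFBP6*.

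**Figure D3:**
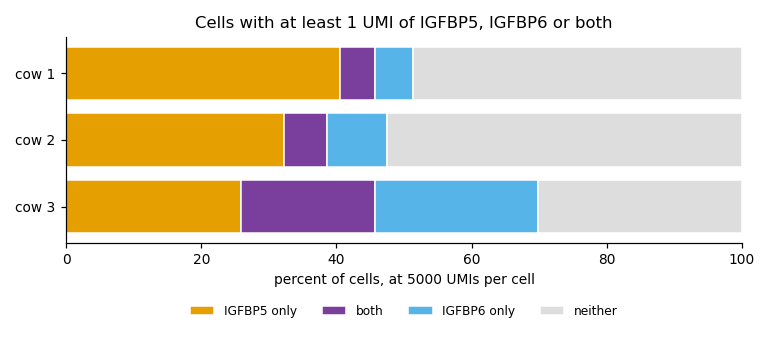
Percent of cells (x axis) with at least 1 UMI of *IGFBP5* only, of both genes, of *IGFBP6* only or of neither in each cow (rows), at 5000 UMIs per cell. Cells with both made up 5.14%, 6.34% and 19.8% in cows 1, 2 and 3.

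These shares of both genes were close to the product of the single shares. The number of cells with both was 1.05, 1.08 and 0.987 times that expected from independent detection in cows 1, 2 and 3. The odds ratio, which is 1 for independence and under 1 for exclusion, was 1.10, 1.16 and 0.957, with a geometric mean of 1.07 (exact sign-flip permutation test over 3 cows, two-sided p = 0.5, where 0.25 is the smallest possible). With this floor the test cannot pass 0.05, and the odds ratios are read as a description. They lay above 1 in 2 cows and below it in 1, and which cow lay below 1 changed with the setting. The share of cells with *IGFBP6* was 11.3% among those with *IGFBP5* and 10.4% among those without in cow 1, 16.5% and 14.5% in cow 2, and 43.5% and 44.5% in cow 3.

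Within classes, the odds ratio in *GJA1*+ cells was 1.07, 1.41 and 1.87 in cows 1, 2 and 3, with a geometric mean of 1.41, and it was above 1 in each cow (p = 0.25 in the exact sign-flip permutation test, the smallest possible). With at least 2 UMIs of each gene required it was 0.625, 1.85 and 2.16, so that cow 1 fell below 1. Only 4.87, 4.39 and 11.7 cells with both were then expected in cows 1, 2 and 3. *GJA1*+ cells were the class with the highest mean level of *IGFBP5* and the lowest of *IGFBP6*. With at least 1 UMI, the odds ratio in *KRT15*+ cells was 1.18, 1.19 and 0.957. In *DLK2*+ cells it was 1.10, 1.04 and 0.958, and in *TOP2A*+ cells 0.884, 1.53 and 0.884. No class had an odds ratio under 1 in all 3 cows at 5000 UMIs. Without thinning and with the 1518 shallower cells put back, the geometric mean over all cells was 1.60, with every cow above 1. At 10000 UMIs, which 11219 cells reached, it was 0.985. The odds ratios there were 0.851, 1.11 and 1.01 in cows 1, 2 and 3. Cow 1 and not cow 3 thus lay below 1, as in 1 random thinning (0.997, 1.34 and 1.02). Cow 3 lay below 1 at 3000 UMIs (0.955) and with at least 2 UMIs of each gene (0.944). It also did so without the 10% of cells with the most UMIs (0.962) and without cells of under 1% mitochondrial UMIs (0.953). In *DLK2*+ cells at 10000 UMIs the geometric mean was 0.790, and the odds ratio was under 1 in each of the 3 cows.

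**Figure D4:**
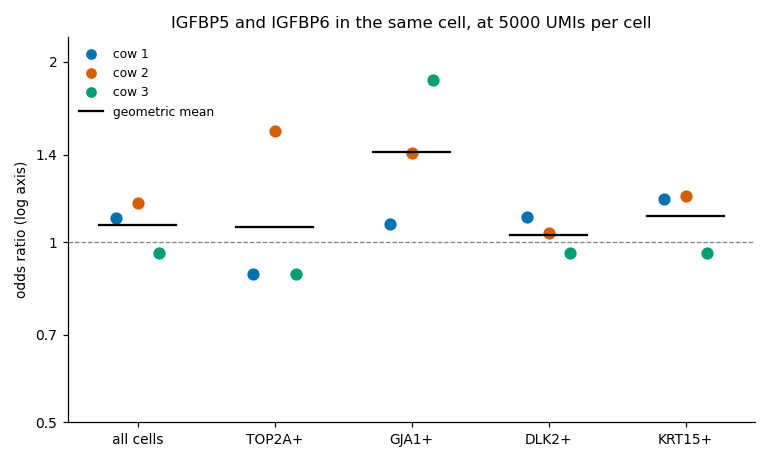
Odds ratio of *IGFBP5* and *IGFBP6* in the same cell (y axis, log scale) over all cells and in each class (x axis), with 1 point per cow, a bar at the geometric mean and a dashed line at independence. *GJA1*+ cells lay above 1 in 3 of 3 cows, at 1.07 to 1.87.

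The cells with each gene differed in the 4 class genes. Cells with *IGFBP5* alone had 1.59, 0.417 and 0.345 UMIs of *GJA1* per 10000 in cows 1, 2 and 3, against 0.298, 0.114 and 0.0574 in cells with *IGFBP6* alone. *GJA1*+ cells made up 21.8%, 8.50% and 6.25% of the first and 6.30%, 2.53% and 1.06% of the second. *DLK2* ran the other way, at 0.551, 0.897 and 0.374 per 10000 in cells with *IGFBP5* alone and 1.04, 0.974 and 0.481 in those with *IGFBP6* alone. *TOP2A* was at 0.468, 0.0895 and 0.554 in the first and 0.805, 0.125 and 1.07 in the second. Cells with neither gene had 1.06, 1.18 and 0.389 UMIs of *DLK2*, 0.658, 0.129 and 1.19 of *TOP2A* and 0.556, 0.212 and 0.193 of *GJA1* per 10000, so that for *TOP2A* both kinds of cells without *IGFBP5* lay above those with *IGFBP5* alone in each cow. In all 3 cows, *KRT15* was lowest in cells with neither (41.9, 49.1 and 47.9 per 10000) and highest in cells with both (60.2, 69.3 and 60.1).

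Levels of *KRT15* and *IGFBP5* moved together inside the *KRT15*+ class. From the lowest to the highest *KRT15* quartile, the mean level of *IGFBP5* was 0.945, 1.59, 1.92 and 2.57 UMIs per 10000 in cow 1, 0.717, 1.13, 1.44 and 1.96 in cow 2, and 1.15, 1.42, 1.55 and 2.34 in cow 3. *IGFBP6* changed less, from 0.367 to 0.554, from 0.433 to 0.719 and from 1.76 to 1.97 between the lowest and highest quartile. *IGFBP7* went the other way, from 0.130 to 0.0613, from 0.0796 to 0.0380 and from 0.0613 to 0.0401. The split into quartiles was made with these values known and carries no test. The median depth also went up from the lowest to the highest quartile, from 7364 to 10506 UMIs in cow 1, from 9550 to 13463 in cow 2 and from 8028 to 9969 in cow 3, as did the median mitochondrial share, from 14.2% to 19.9%, from 9.73% to 11.7% and from 11.1% to 13.2%. The part of either was not tested.

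In cells thinned once at random to 5000 UMIs, *IGFBP5* and *IGFBP6* went opposite ways with *GJA1*. Cells with no *GJA1* UMI had 1.55, 1.21 and 1.52 UMIs of *IGFBP5* per 10000 in cows 1, 2 and 3, and cells with 3 or more had 4.53, 3.06 and 3.69. For *IGFBP6*, the values were 0.404, 0.452 and 1.90 with none and 0.108, 0.229 and 0.466 with 3 or more. With *DLK2*, *IGFBP5* fell from 2.21 to 0.780, from 1.36 to 0.565 and from 1.61 to 1.14 between cells with no UMI and with 3 or more. *IGFBP6* differed among cows, from 0.358 to 0.415 in cow 1, from 0.487 to 0.240 in cow 2 and from 1.76 to 2.58 in cow 3.

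**Figure D5:**
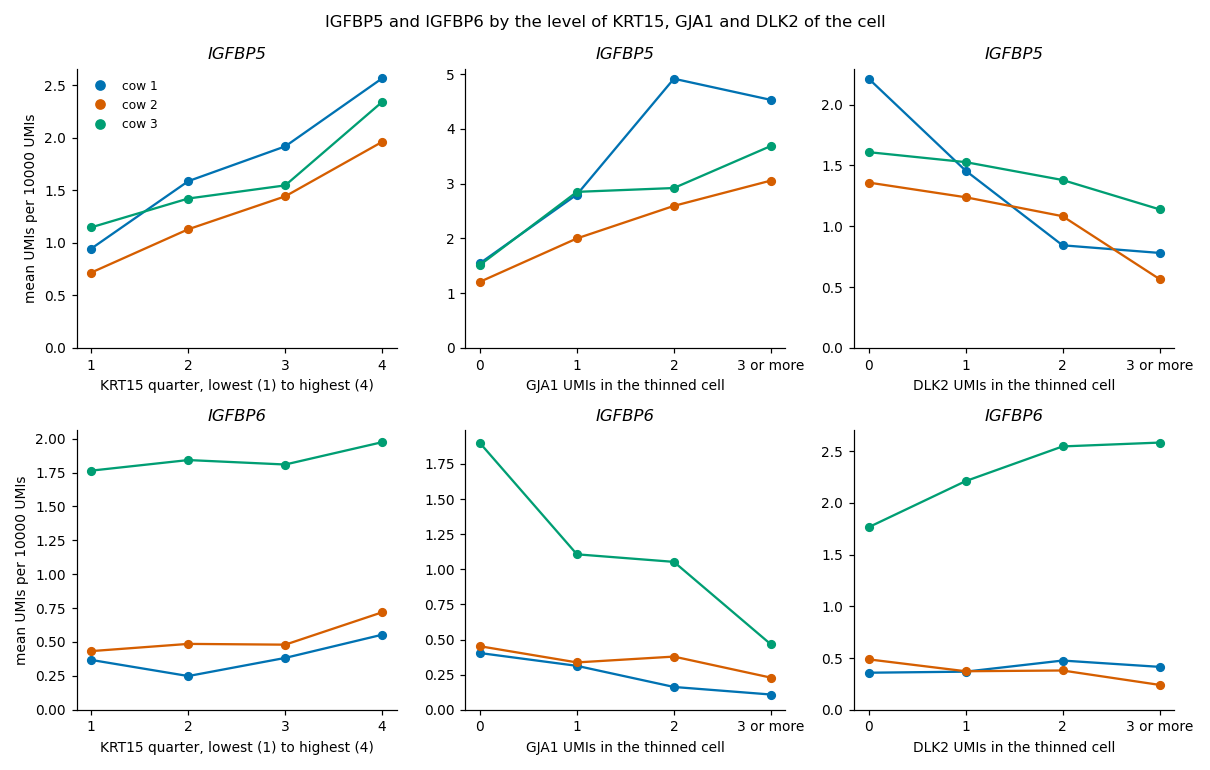
Mean level of *IGFBP5* (upper row) and *IGFBP6* (lower row) in UMIs per 10000 UMIs (y axes) by *KRT15* quartile of the *KRT15*+ cells and by the *GJA1* and *DLK2* UMIs of cells thinned to 5000 UMIs (x axes), with 1 line per cow. *IGFBP5* was higher and *IGFBP6* lower in cells with 3 or more *GJA1* UMIs than in cells with none, in all 3 cows.

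Cells that carried both *GJA1* and *DLK2*, with at least 2 UMIs of each and under 2 of *TOP2A*, numbered 50. Their *IGFBP5* level was 5.36, 4.01 and 5.16 UMIs per 10000 in cows 1, 2 and 3 (14, 31 and 5 cells), above that of cells with *GJA1* alone (4.26, 2.44 and 3.19) and of cells with *DLK2* alone (1.14, 1.05 and 1.69) in each of the 3 cows. The 5 cells of cow 3 are too few for a firm level. The 117 cells with *TOP2A* and *GJA1* had 3.46, 1.29 and 2.80, against 1.06, 0.845 and 0.817 in cells with *TOP2A* alone. The part of doublets, which can also carry both markers, was not tested.

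Of the 28 pairs of the 8 genes, 16 had at least 5 cells with both expected in every cow. The odds ratio was above 1 in all 3 cows for *IGFBP3* with *IGFBP6* (4.35, 2.10 and 2.26), *IGFBP3* with *IGFBP5* (1.39, 1.95 and 1.92), *IGFBP4* with *IGFBP5* (1.05 to 1.36), *IGFBP4* with *IGFBP6* (1.06, 1.14 and 1.12) and *IGF1R* with *IGF2R* (1.31, 1.16 and 1.12). It was under 1 in all 3 cows for *IGFBP5* with *IGFBP7* (0.600, 0.676 and 0.969) and for *IGFBP6* with *IGF2R* (0.940, 0.939 and 0.985). The largest of these odds ratios were those of *IGFBP3* with *IGFBP6*, and the smallest those of *IGFBP5* with *IGFBP7*. The other 9 of the 16 pairs were mixed over cows. No share over all pairs of genes was computed, so these odds ratios are a description with no test and no background.

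Likeness over cells was ranked among the 6963 genes found in at least 5% of cells. The genes most like *IGFBP5* over cells, by the correlation of deposited log-normalized values within each cow averaged over 3 cows, were *SLC16A1* (mean r = 0.337), which encodes a monocarboxylate transporter, 2 genes known only by ID, ENSBTAG00000037509 (0.329) and ENSBTAG00000036116 (0.328), and *BSG* (0.327), whose product is the partner of that transporter at the membrane. A gene without a symbol (0.299) came next. *CCDC3* (-0.215), *TPT1* (-0.200) and *ZFP36L2* (-0.183) were least like it. For *IGFBP6* they were *KRT5* (0.257) and *KRT14* (0.233), the keratin pair of basal cells, *S100A10* (0.192) and 2 genes without a symbol (0.222 and 0.168), and the least alike were *JUN* (-0.150), *ZFP36* (-0.134) and *JUNB* (-0.134), which are immediate-early genes. Of the class genes, *KRT15* stood at rank 11 of 6963 genes for *IGFBP5* (0.287) and *GJA1* at rank 48 (0.196), while *TOP2A* (-0.0613) and *DLK2* (-0.128) stood at ranks 6669 and 6919. For *IGFBP6* the ranks were 96 for *KRT15* (0.0838), 3512 for *TOP2A* (0.00555), 5226 for *DLK2* (-0.00437) and 6857 for *GJA1* (-0.0524). *IGFBP5* and *IGFBP6* correlated at 0.0367, which was 0.0536, 0.0657 and -0.00901 in cows 1, 2 and 3. *IGFBP6* stood at rank 893 of 6963 genes for *IGFBP5*, and *IGFBP5* at rank 565 for *IGFBP6*. Cells of a library are not replicates and differ in depth, so these correlations are a description.

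The rest of the pathway was examined with a list of 45 genes, of which 21 passed the filter on low counts. The ligands were almost absent, with 1 UMI of *IGF1* and 88 of *IGF2* over all cells, and so were the carrier subunit *IGFALS* (16) and the protease *PAPPA* (17). The proteases *HTRA1*, which cuts several binding proteins, and *CTSD*, a lysosomal enzyme, had 54388 and 45611 UMIs. Between *GJA1*+ and *KRT15*+ cells, 3 of the 21 genes were higher and 5 lower, against 17.1% and 24.4% of all genes, and DESeq2 called 7, where it called 35.2% of all genes. The largest differences were those of *IRS2* (-1.60 ± 0.53, adjusted p = 0.0188) and *FOXO1* (-1.19 ± 0.15, adjusted p = 1.9e-06), an adaptor and a transcription factor of insulin signalling, and of *IGF2BP2* (-1.08 ± 0.28, adjusted p = 0.00378), an RNA-binding protein. *IRS2* was sparse, with 238 UMIs over all cells, so its fold changes here and below rest on few counts. *IGF2BP2* had 771 UMIs. Against *DLK2*+ cells, 3 were higher and 5 lower in *GJA1*+ cells, against 19.5% and 29.2% of all genes and with 8 called by DESeq2 (44.3% of all genes), led by *IRS2* (-1.995 ± 0.55, adjusted p = 0.00437), *FOXO1* (-1.48 ± 0.16, adjusted p = 1.1e-07) and the kinase subunit *PIK3CB* (1.38 ± 0.18, adjusted p = 6.4e-07).

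Between *DLK2*+ and *KRT15*+ cells, none of the 21 genes was called by edgeR, and 4 had an unadjusted p under 0.05, where 16.5% of all genes did. DESeq2 called 1 of the 21, of which 15 had an adjusted p, where it called 1.73% of all genes. Genes with no adjusted p count as not called in both shares. *TOP2A*+ cells had 1 gene higher and 6 lower than *KRT15*+ cells, against 16.1% and 19.1% of all genes and with 4 called by DESeq2 (27.7% of all genes), led by *CTSD* (-0.70 ± 0.10, adjusted p = 4.9e-06), *FOXO1* (-0.67 ± 0.14, adjusted p = 0.000603) and the regulatory subunit *PIK3R1* (-0.66 ± 0.09, adjusted p = 5.2e-06). They had 3 higher and 4 lower than *GJA1*+ cells, against 21.0% and 17.3% of all genes and with 3 called by DESeq2 (33.4% of all genes), led by *CTSD* (-1.44 ± 0.10, adjusted p = 4.1e-11), the growth kinase *MTOR* (0.78 ± 0.30, adjusted p = 0.0416) and *PDPK1* (0.75 ± 0.28, adjusted p = 0.0345), a kinase that activates AKT. Against *DLK2*+ cells, 2 were higher and 6 lower, against 19.3% and 23.8% of all genes and with 6 called by DESeq2 (37.2% of all genes), led by *IRS2* (-1.47 ± 0.52, adjusted p = 0.0242), *FOXO1* (-0.97 ± 0.15, adjusted p = 1.8e-05) and *PIK3CB* (0.95 ± 0.19, adjusted p = 0.000203). *MTOR* and *PDPK1* were also sparse, with 521 and 903 UMIs over all cells. Apart from the counts of DESeq2 calls, no alternative is given for the genes of this list. Counted in either direction, no count of edgeR calls in the list was above the share of all genes that edgeR called. Between *DLK2*+ and *KRT15*+ cells, the DESeq2 call of 1 of 21 lay above its 1.73% of all genes but rests on 1 gene. There, the 4 of 21 with an unadjusted edgeR p under 0.05 lay close to 16.5%. By direction, 6 of 21 lower lay above the background of 19.1% for *TOP2A*+ against *KRT15*+ cells. For *TOP2A*+ cells, 6 of 21 lower lay close to 23.8% against *DLK2*+ cells, and 4 of 21 lower close to 17.3% against *GJA1*+ cells. None of these was tested, and each rests on few genes. The median absolute log2 fold change of the 21 genes was 0.32 between *GJA1*+ and *KRT15*+ cells (0.32 over all genes), 0.095 between *DLK2*+ and *KRT15*+ cells (0.13), 0.46 between *GJA1*+ and *DLK2*+ cells (0.40), and 0.37, 0.41 and 0.45 for *TOP2A*+ against *KRT15*+, *GJA1*+ and *DLK2*+ cells (0.27, 0.33 and 0.35).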

How the data were processed

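The authors made the libraries with the 10x Genomics 3' v3 kit and counted them with Cell Ranger 3.1.0, which the submitters' processing notes also name, against a cow reference. Their filters removed poor cells and cells other than epithelial. Doublets were sought with DoubletFinder, whether those found were taken out is not stated, and no doublet caller was run here. The deposited matrix holds UMI counts per gene and cell. The deposited table that names the genes holds the natural log of 1 plus the counts scaled to 10000 UMIs per cell. It differed from this formula by under 1e-06 at every value, gave the gene names, and was used for the correlations of genes over cells alone. Barcode suffixes gave the cow. Depth was 38912809, 94856658 and 104189434 UMIs in cows 1, 2 and 3, so that counting error is small for *IGFBP5* and *IGFBP6* and the spread over 3 cows limits the precision.

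Counts were summed per cow and class (15 sums, the cells of no class included) and tested with edgeR 4.0.16 in R 4.3.3 (TMM, filterByExpr, quasi-likelihood F test). The standard error is the absolute log2 fold change divided by the square root of F. The common biological coefficient of variation was 0.0849. The 4 class genes were left out of counts of calls. The cow as a block was checked on the sums: sums of the same cow deviated together from the class means (r of 0.533 to 0.867). Odds ratios had 0.5 added to each cell of the table. Sums, thinning and figures were made in Python 3.11.15 (scipy 1.17.1, numpy 2.4.6, matplotlib 3.10.9 and pandas 2.3.3), and the test script was tested on simulated data. Alternatives were DESeq2 1.42.0, scaling by library size, no block, no filter, other class and depth limits and each cow left out. The study's own test over cells was not used, since cells of a cow are not replicates. The genes named are the 8 members, the pathway genes called with the 3 largest log2 fold changes of a comparison, and the 5 genes most and 3 least like *IGFBP5* and *IGFBP6*. The members and lists were chosen with earlier results of these data known. No gene position is given, because the RefSeq annotation used is not of the build of the files.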

Additional observations from a re-analysis of the deposited data

How the results depend on the processing

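Of the 48 log2 fold changes of the 8 genes, 22 were called, and no called one changed sign under the 13 alternatives. Leaving out cells with under 1% mitochondrial UMIs, the cells of no class, or cells with 2 of *TOP2A*, *GJA1* and *DLK2*, and 1 random thinning, were chosen after seeing the data. Apart from the fit with no replicate block, 13 of the 22 kept their call under every alternative that gave a value. With no block 7 kept it. Classes of cells with exactly 1 of the 4 markers could not be used, because almost every cell had *KRT15* (1 *TOP2A*+, 43 *GJA1*+ and 3 *DLK2*+ cells were left). Cells thinned first gave values for 5 of the 8 genes, since the others did not pass the filter, and DESeq2 gave no adjusted p for 4 values of *DLK2*+ against *KRT15*+ cells, which were left out.

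In the order *GJA1*+ against *KRT15*+, *DLK2*+ against *KRT15*+, *GJA1*+ against *DLK2*+, and *TOP2A*+ against *KRT15*+, *GJA1*+ and *DLK2*+, the genes called were 4297, 398, 5032, 3635, 3954 and 4462. With no replicate block they were 638, 3, 1514, 524, 993 and 1004, and with an absolute log2 fold change over 1 they were 1158, 87, 1683, 793, 1372 and 1300. Thinned cells gave 2208, 2757, 1765, 2059 and 2308 for all but *DLK2*+ against *KRT15*+, which was at 179 with DESeq2, 679 with no filter and 697 with classes set at 1 UMI. Its share of higher calls, 45.2%, was 21.8% with DESeq2 and 33.1% without the cells of no class. Over 14 alternatives it ran from 0% to 47.7%, where 0% was with no replicate block and 3 genes called. With 1 cow left out, the ranges were 2983 to 3829, 76 to 558, 3742 to 4625, 2210 to 3159, 2784 to 3144 and 3130 to 3976. The low counts of *DLK2*+ against *KRT15*+, 76 and 113, were without cows 2 and 1.

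The odds ratio of *IGFBP5* and *IGFBP6* without thinning, shallower cells included, was 1.60 over all cells, 0.963 in *TOP2A*+, 2.47 in *GJA1*+, 1.49 in *DLK2*+ and 1.73 in *KRT15*+ cells. With at least 2 UMIs required it was 1.60 in *TOP2A*+ and 1.29 in *DLK2*+ cells, and at 10000 UMIs 0.790 in *DLK2*+ cells. The value of 1.60 is the geometric mean of 2.07, 2.31 and 0.856 in cows 1, 2 and 3. There, only 1.13, 0.770 and 22.7 *TOP2A*+ cells with both genes were expected, so it rests on few cells. In *DLK2*+ cells, 2.25, 8.59 and 40.8 were expected. With 1 cow left out it was 1.03 to 1.13 over all cells, 0.884 to 1.16 in *TOP2A*+, 1.23 to 1.62 in *GJA1*+, 0.996 to 1.07 in *DLK2*+ and 1.06 to 1.19 in *KRT15*+ cells.

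Only values that were not called changed sign. *IGFBP2* was at -0.060 with no replicate block for *DLK2*+ against *KRT15*+, at 0.0022 with DESeq2, 0.069 scaled by library size and 0.075 with classes at 1 UMI for *TOP2A*+ against *KRT15*+, and at 0.011 with no replicate block for *TOP2A*+ against *DLK2*+. *IGFBP3* for *TOP2A*+ against *KRT15*+ was at -0.35 without cells with 2 of the markers and -0.29 in thinned cells. *IGF2R* for *GJA1*+ against *KRT15*+ was at 0.031 without cells with 2 of the markers, 0.025 in thinned cells, 0.038 without cells under 3000 UMIs, 0.020 without the cells of no class and 0.040 without cells of under 1% mitochondrial UMIs. *IGF2R* was at -0.0020 with DESeq2 and -0.037 scaled by library size for *GJA1*+ against *DLK2*+, and scaled by library size at 0.074 for *TOP2A*+ against *GJA1*+ and 0.037 against *DLK2*+. With 1 cow left out, *IGFBP2* ranged from -0.68 to 0.60 (*GJA1*+ against *KRT15*+), -0.31 to 1.04 (*DLK2*+ against *KRT15*+), -0.21 to 0.16 (*TOP2A*+ against *KRT15*+), -0.44 to 0.47 (*TOP2A*+ against *GJA1*+) and -0.88 to 0.10 (*TOP2A*+ against *DLK2*+). *IGFBP3* ranged from -0.39 to 0.56 and *IGFBP4* from -0.50 to 0.11 for *TOP2A*+ against *KRT15*+, and *IGFBP6* from -0.10 to 0.33 for *DLK2*+ against *KRT15*+. For *TOP2A*+ against *DLK2*+, *IGFBP4* ranged from -0.20 to 0.54, *IGFBP5* from -0.66 to 0.12 and *IGF2R* from -0.10 to 0.079. *IGF1R* ranged from -0.054 to 0.71 for *TOP2A*+ against *GJA1*+ and *IGF2R* from -0.074 to 0.049 for *GJA1*+ against *KRT15*+. The cause of these changes was not tested.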
